A study of Homo sapiens with 4 samples.

Results

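Of the 29209 genes listed for HaCaT keratinocytes, 10 make up the TRAIL, death receptor and caspase-8 pathway described here, taken by gene name: TNFSF10, TNFRSF10A, TNFRSF10B, TNFRSF10D, FAS, FADD, CASP8, CASP10, CFLAR and RIPK1. HaCaT is an established, spontaneously immortalised human keratinocyte line. Cells given lentivirus to overexpress TCN1, the gene of haptocorrin, which carries vitamin B12 outside cells (TCN1_OE, 2 libraries), were compared with negative control cells of the same line (NC, 2 libraries). RNA was taken with Trizol after 48 h and polyA RNA was sequenced, to find which genes differ when TCN1 is overexpressed. The sources used here do not give the vector, its promoter, whether the line is a clone or a pool, or whether replicate libraries were separate cultures. The p-values therefore cover the spread between libraries, and part or all of that spread may be technical.

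TRAIL, the product of TNFSF10, is a ligand of the tumour necrosis factor family that binds the death receptors DR4 and DR5, encoded by TNFRSF10A and TNFRSF10B. Bound receptors, like FAS after binding its own ligand, recruit the adaptor FADD, which brings in procaspase-8 and procaspase-10 to form the death-inducing signalling complex, where the caspases activate each other. The protein c-FLIP, encoded by CFLAR, resembles these caspases but lacks their protease activity and controls how far they are activated, while the kinase RIPK1 links the same receptors to NF-kB signalling and to necroptosis. Keratinocytes carry TRAIL receptors, and c-FLIP is known to restrain death signals in them.

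The transcript of the ligand rose in TCN1_OE, and no other member passed the test. TNFSF10 was the most abundant member and stood 1.51-fold higher (95% interval 1.29 to 1.77). CFLAR and CASP10, which lie next to each other on chromosome 2, stood 1.42-fold and 1.35-fold higher without passing, and FAS stood at 0.742 of its NC level without passing. TNFRSF10B, FADD, CASP8 and RIPK1 stood at 0.934-fold to 1.07-fold of their NC level, and the intervals of these 4 genes reached no further than 0.764-fold and 1.36-fold.

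The 5′ flanks of 3 members are shown, chosen by the absolute size of the log2 fold change. By that measure TNFSF10 and CFLAR had the largest of the members, 0.59 and 0.51, and RIPK1 had the smallest, 0.02. They are the 250 bases before a RefSeq start site on GRCh38.p14, written 5′ to 3′ in the gene's direction, and capitals mark matches to the motifs searched. TNFSF10 is on the minus strand at chr3:172523431-172523680, CFLAR, shown for 1 of its 4 listed start sites, on the plus strand at chr2:201118466-201118715 and RIPK1, shown for 1 of 3, on the plus strand at chr6:3068128-3068377.
TNFSF10: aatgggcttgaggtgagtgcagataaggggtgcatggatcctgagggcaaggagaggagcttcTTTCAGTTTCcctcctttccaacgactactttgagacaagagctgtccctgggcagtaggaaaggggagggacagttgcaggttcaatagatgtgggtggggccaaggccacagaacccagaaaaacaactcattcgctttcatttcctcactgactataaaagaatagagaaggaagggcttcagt
CFLAR: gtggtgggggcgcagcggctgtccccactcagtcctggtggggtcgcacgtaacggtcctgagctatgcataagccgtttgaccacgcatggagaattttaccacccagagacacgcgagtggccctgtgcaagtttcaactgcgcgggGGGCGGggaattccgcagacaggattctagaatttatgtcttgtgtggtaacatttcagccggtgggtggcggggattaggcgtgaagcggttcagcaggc
RIPK1: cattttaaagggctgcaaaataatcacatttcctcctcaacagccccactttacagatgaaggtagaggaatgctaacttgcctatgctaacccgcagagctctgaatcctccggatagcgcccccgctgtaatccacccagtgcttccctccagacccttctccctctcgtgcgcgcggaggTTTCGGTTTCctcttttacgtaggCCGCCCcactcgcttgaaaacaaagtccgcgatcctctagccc
The motifs, searched on both strands with overlaps allowed, were an interferon response motif (GAAA, any 2 bases, GAAA), a forkhead motif (GTAAACA), an NF-kB motif (GGG, any 2 bases, TTTCC) and an SP1 motif (GGGCGG). TNFSF10 held 1 match to the interferon response motif, read on the other strand as TTTCAGTTTC and starting 187 bases before the start site. RIPK1 held a match to the same motif, also read on the other strand, as TTTCGGTTTC, starting 67 bases before this start site. It also held 1 match to GGGCGG. Of its start sites not shown, that at 3068494 held the interferon response motif as well, and that at 3063967 held GGGCGG matches only. CFLAR held 1 match to GGGCGG at the start site shown. Its start site at 201140275 held 2 GGGCGG matches, and those at 201128965 and 201132781 held 0 matches to any of the motifs. Of 35116 promoters of this length in the table, 3.02% held the interferon response motif, 2.98% the forkhead motif, 1.73% the NF-kB motif and 42.6% the SP1 motif. The table had 15 entries for 6 of the 10 members, and the forkhead and NF-kB motifs matched in 0 of them. A match describes the letters only.

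The libraries held between 11593377 and 19973550 counts, and all 10 members had at least 47 counts in every library, so none was near the limit of detection. TCN1, the check of the labels, had 17 to 50 counts in the NC libraries and 1253 to 1700 in the TCN1_OE libraries. All 15 keratinocyte markers examined had a mean of at least 1 FPKM. FPKM is a count scaled to the gene's length in kilobases and to the library's total. The summed level of 9 immune markers was 2.31 to 2.74 FPKM in NC and 2.2 to 3.16 FPKM in TCN1_OE, most of it from CD14 with a mean of 2.34 FPKM, while PTPRC had 0.00805. That of 5 fibroblast markers was 1.89 to 2.15 against 1.83 to 2.06 FPKM, most of it from COL1A1 (1.85), with DCN at 0.011. Over 4 melanocyte markers it was 1.12 to 1.42 against 1.42 to 1.49 FPKM, led by PMEL (0.972) and MLANA (0.38), and over 4 endothelial markers 0.941 to 1.3 against 1.04 to 1.4 FPKM, led by VWF (1.01). Mitochondrially encoded genes took 5.33% and 5.13% of the counts in NC and 6.04% and 5.65% in TCN1_OE. This share moved with the groups, and its part in the results below was not tested.

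Differences were tested with the quasi-likelihood test of edgeR on the counts of all 4 libraries, and called at a Benjamini-Hochberg adjusted p under 0.05 over all 15113 genes tested. All 10 members passed the filter on low counts. Of them, 1 was called higher and 0 lower, where 0.285% of all genes tested were called higher and 0.212% lower, or 0.496% either way. With p under 0.05 before adjustment, 3 members were higher and 1 lower, where 12.8% of all genes tested passed (6.00% higher and 6.81% lower). DESeq2, run on 29209 genes, called 95 higher and 109 lower in all, among them 1 member higher and 0 lower. The libraries of the groups did not overlap for 6 members, 4 higher and 2 lower, a pattern seen in 43.0% of all genes, 21.2% higher and 21.8% lower. Log2 fold changes were positive for 6 members and negative for 4, with a median of 0.05, beside a median of 0.002 and 50.3% positive over all genes tested.

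**Figure D1:**
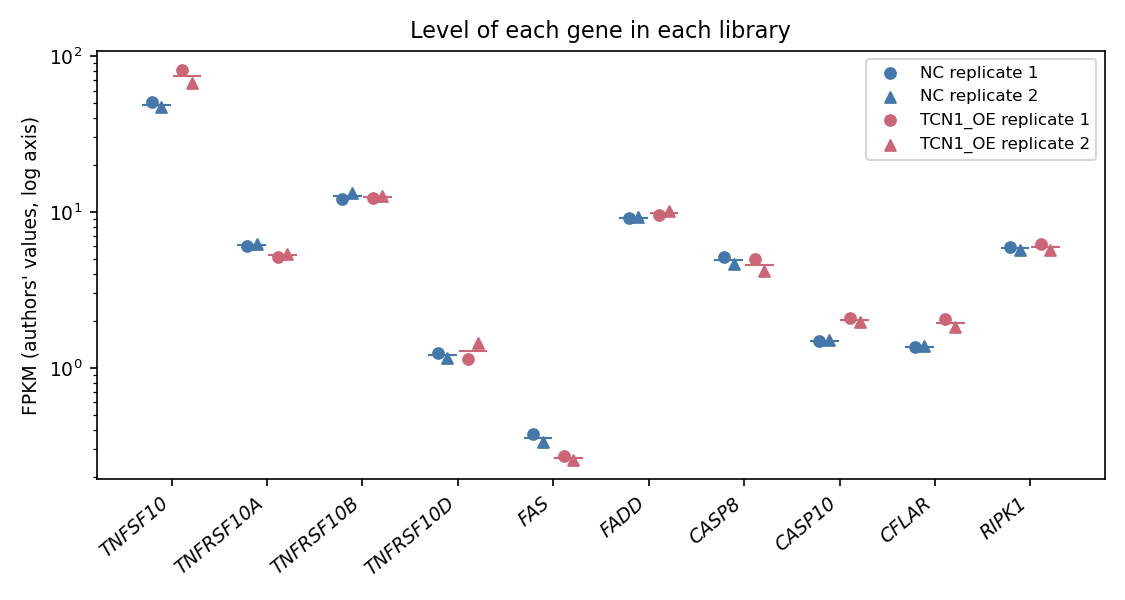
FPKM of the 10 members (log axis) in each of the 4 libraries, with circles for replicate 1, triangles for replicate 2 and a line at each group's mean. TNFSF10 stands highest, at 46.8 to 81.0 FPKM, and both TCN1_OE libraries lie above both NC libraries for TNFSF10, FADD, CASP10 and CFLAR and below them for TNFRSF10A and FAS.

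TNFSF10 (ENSG00000121858, chromosome 3, 172505508 to 172523507 of GRCh38, minus strand) encodes the ligand TRAIL. It stood at 50.9 and 46.8 FPKM in NC and at 81.0 and 67.0 FPKM in TCN1_OE, from counts of 3498 and 1867 against 4623 and 3404. Both TCN1_OE libraries were above both NC libraries, and the gap between the groups was wider than the gap within either. The group means were 48.8 ± 2.90 and 74.0 ± 9.87 FPKM (SD, n = 2 each), and the edgeR log2 fold change was 0.59 ± 0.10 (SE) with an adjusted p of 0.0475. This p is close to the threshold: TNFSF10 ranked 62 by p among the 75 genes called. Leaving out any 1 library gave log2 fold changes of 0.46 to 0.71, with 1 library left in a group. DESeq2 on all 4 libraries gave an adjusted p of 3.8e-04. The call ended with edgeR on genes of at least 1 FPKM, at an adjusted p of 0.0538, and with limma on log2(FPKM + 0.5), at 0.184. Over the 13 alternatives run, the adjusted p (edgeR, DESeq2 or limma) lay between 3.5e-15 and 0.184. The lowest came from edgeR with the replicate number as a block, a pairing that the labels do not state. None of the gene's exonic bases lies under another gene in GENCODE release 29.

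The 3 genes with the profile most like TNFSF10 over the 4 libraries were SAT1, MMP13 and SEMA6D. Likeness was the Euclidean distance between log2(FPKM + 0.5) values after subtraction of each gene's mean, among 6687 other genes of at least 5 FPKM, of which 28 lay within 0.2. SAT1, which acetylates polyamines for their export and breakdown, was at 38.1 and 37.1 FPKM in NC and 62.7 and 52.1 FPKM in TCN1_OE, with a distance of 0.0601. MMP13, a collagenase, was at 52.3 and 48.3 FPKM against 78.2 and 65.9 FPKM, and the semaphorin SEMA6D at 4.57 and 4.23 FPKM against 7.52 and 6.69 FPKM. With 4 libraries such a likeness is a description only.

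Among the TRAIL receptors, the signalling receptor DR5 was the most abundant transcript and none of the 3 receptors was called. TNFRSF10B, which encodes DR5 (chromosome 8, 23020133 to 23069179), stood at 12.1 and 13.3 FPKM in NC and 12.2 and 12.6 FPKM in TCN1_OE. Both TCN1_OE values fell between the NC values, and the log2 fold change of -0.04 ± 0.11 had a 95% interval of -0.28 to 0.20. Any difference larger than 1.15-fold up or 0.821-fold down lies outside that interval.

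TNFRSF10A, which encodes DR4 (chromosome 8, 23190452 to 23225126), stood at 6.02 and 6.25 FPKM in NC and 5.15 and 5.35 FPKM in TCN1_OE. Its libraries were lower in TCN1_OE without overlap, but the log2 fold change of -0.23 ± 0.15 did not pass (edgeR adjusted p = 0.582). Of its exonic bases, 16.6% lie under antisense or other noncoding genes of the opposite strand, and the library kit does not mark strand. TNFRSF10D, a decoy receptor with a truncated death domain (chromosome 8, 23135588 to 23164030), had the fewest counts of the members, 88 and 47 in NC and 66 and 75 in TCN1_OE. It stood at 1.25 and 1.15 FPKM against 1.13 and 1.44 FPKM, so the TCN1_OE libraries spanned the NC range. The interval of its log2 fold change, -0.47 to 0.65, was the widest of the 3 TRAIL receptors.

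The balance of DR5 to the decoy receptor was taken within each library as the ratio of FPKM values. The ratio was 9.69 and 11.6 in NC and 10.8 and 8.76 in TCN1_OE, and the groups overlapped. The difference in log2 ratio was -0.13, with a two-sided exact permutation p of 0.667. With 2 libraries against 2 this test cannot go below 0.333.

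FAS encodes a death receptor with a ligand of its own (chromosome 10, 88990582 to 89015785). Its NC counts were 220 and 113 and its TCN1_OE counts 132 and 111, which gave 0.376 and 0.332 against 0.271 and 0.257 FPKM. Both TCN1_OE libraries were below both NC libraries in FPKM. Its edgeR log2 fold change of -0.43 ± 0.19 had a p of 0.0452 before and 0.375 after adjustment. In GENCODE release 29, 8.93% of its exonic bases lie under ACTA2 on the opposite strand, which had 3 to 11 counts per library.

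**Figure D2:**
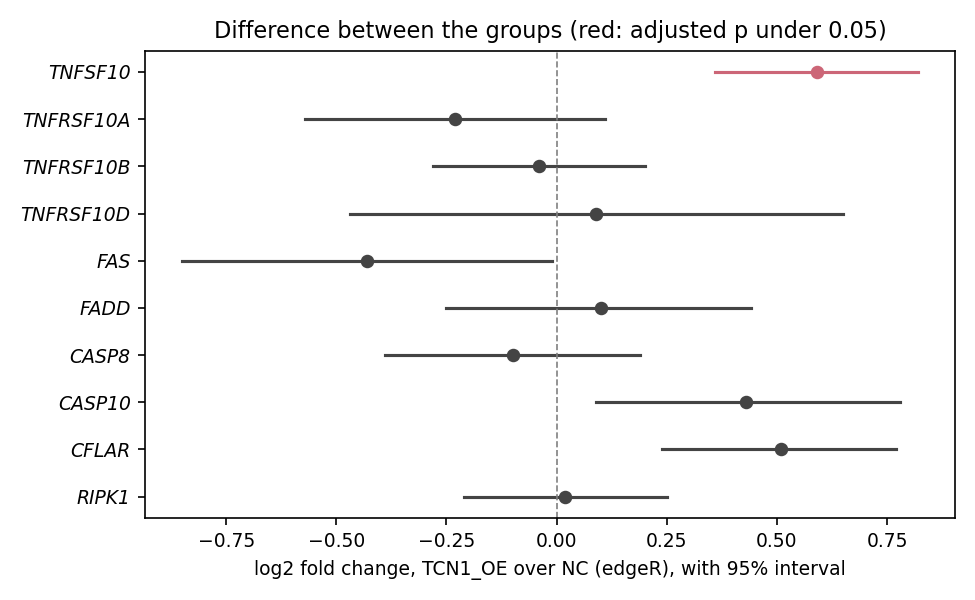
Log2 fold change of TCN1_OE over NC for the 10 members (edgeR), with points for the estimate and lines for its 95% interval. The TNFSF10 interval, 0.36 to 0.82, belongs to the 1 called gene, and the intervals of CFLAR, CASP10 and FAS also lie to one side of 0 although these genes did not pass the adjusted threshold.

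The adaptor and the kinase of the complex had fold changes near 1. FADD, the adaptor that bridges receptors and procaspase-8 (chromosome 11, 70203163 to 70207390), stood at 9.12 and 9.24 FPKM in NC and 9.53 and 10.2 FPKM in TCN1_OE. The TCN1_OE libraries were both higher, by a margin that gave a log2 fold change of 0.10 ± 0.15. In GENCODE release 29, 54.9% of the exonic bases of FADD lie under an antisense gene that is not among the listed genes. RIPK1 (chromosome 6, 3063991 to 3115187) stood at 5.99 and 5.72 FPKM in NC and 6.25 and 5.67 FPKM in TCN1_OE. These ranges overlapped, and its log2 fold change of 0.02 ± 0.10 had an interval of -0.21 to 0.25.

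The initiator caspases and their regulator are neighbours on chromosome 2, in the order CFLAR (201116104 to 201176687), CASP10 (201182881 to 201229406) and CASP8 (201233443 to 201287711), all on the plus strand. CASP8, the main initiator caspase of the complex, stood at 5.12 and 4.66 FPKM in NC and 5.02 and 4.16 FPKM in TCN1_OE. The groups overlapped, and the log2 fold change was -0.10 ± 0.13, its interval -0.39 to 0.19. CASP10, a close relative of caspase-8, stood at 1.49 and 1.50 FPKM in NC and 2.08 and 1.96 FPKM in TCN1_OE. Its groups did not overlap, and the log2 fold change of 0.43 ± 0.16 had an unadjusted edgeR p of 0.0197 and an adjusted p of 0.274.

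CFLAR, which encodes c-FLIP, had NC counts of 605 and 357 and TCN1_OE counts of 766 and 604, which gave 1.35 and 1.37 against 2.05 and 1.82 FPKM. Both TCN1_OE libraries were above both NC libraries, which were nearly equal. Its edgeR log2 fold change of 0.51 ± 0.12 had an interval of 0.24 to 0.77 and a p of 0.00161 before and 0.104 after adjustment. CFLAR was called with edgeR without a filter on low counts, at an adjusted p of 0.0211. Leaving out any 1 library gave log2 fold changes of 0.43 to 0.58, with 1 library left in a group. Over the 13 alternatives its adjusted p (edgeR, DESeq2 or limma) lay between 9.7e-06, from the replicate block, and 0.398. In GENCODE release 29, 12% of its exonic bases lie under other genes, and the antisense gene CFLAR-AS1 had 6 to 17 counts per library.

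CFLAR stood higher relative to CASP8 in the TCN1_OE libraries. The ratio of CFLAR to CASP8 counts was 0.818 and 0.913 in NC and 1.27 and 1.36 in TCN1_OE. CASP8 thus had more counts in both NC libraries and CFLAR in both TCN1_OE libraries. Which gene stands higher depends on the gene length: the ratio of FPKM values was 0.263 and 0.294 in NC and 0.41 and 0.438 in TCN1_OE. On that scale CASP8 stayed above CFLAR in every library. The ratio was 1.52-fold higher in TCN1_OE, a difference of 0.61 in log2 ratio that no choice of gene length can alter. The SD of the log2 ratio was 0.11 in NC and 0.07 in TCN1_OE, and the two-sided exact permutation p was 0.333, the smallest this design allows. The ratio of CASP10 to CASP8 counts, chosen after its values were seen, was 0.358 and 0.396 in NC and 0.512 and 0.581 in TCN1_OE, again with an exact permutation p of 0.333. Over the 3 ratios computed the Benjamini-Hochberg adjusted values of these exact tests were 0.5, 0.667 and 0.5.

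**Figure D3:**
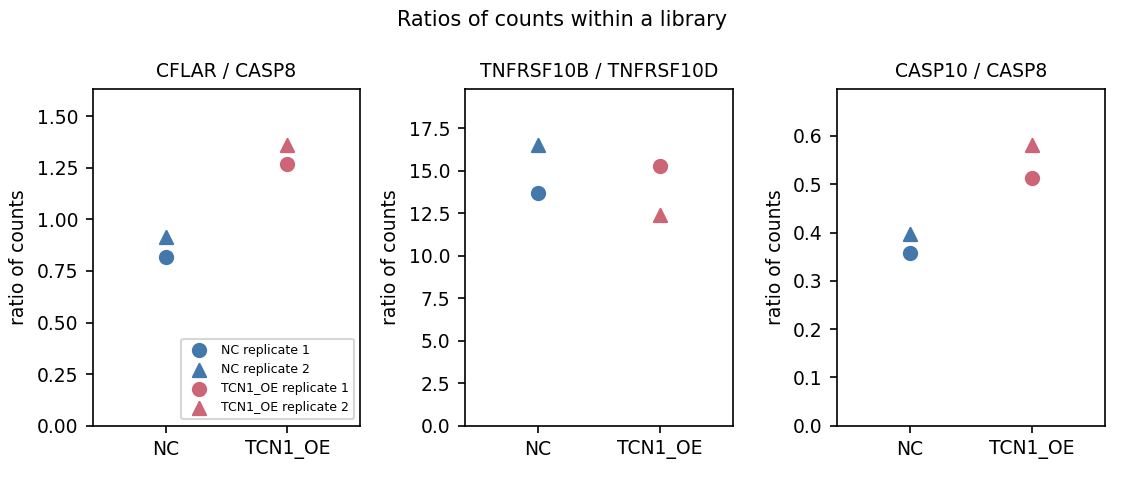
Ratio of counts of 2 genes within each library, with linear axes from 0, circles for replicate 1 and triangles for replicate 2. The TCN1_OE libraries lie above the NC libraries for CFLAR over CASP8 (1.27 and 1.36 against 0.818 and 0.913) and for CASP10 over CASP8, and the groups overlap for TNFRSF10B over TNFRSF10D.

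None of the other genes around either cluster was called by edgeR. Within 200000 bp of the cluster 8 other genes were tested, 0 were called, and their log2 fold changes lay between -0.19 and 0.08. Around the TRAIL receptor genes on chromosome 8, 9 other genes were tested within the same distance and 0 were called, with values between -0.59 and 0.46. The lowest of these, the antisense gene TNFRSF10A-AS1 at -0.59 ± 0.53, had 9 to 24 counts per library.

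The order of the members by level depended on the gene length used. On the authors' FPKM the mean over the 4 libraries was 61.4 for TNFSF10, 12.5 for TNFRSF10B, 9.51 for FADD, 5.91 for RIPK1, 5.69 for TNFRSF10A, 4.74 for CASP8, 1.76 for CASP10, 1.65 for CFLAR, 1.24 for TNFRSF10D and 0.309 for FAS. Neighbours in this order whose ranges overlapped were RIPK1 with TNFRSF10A, CASP10 with CFLAR and CFLAR with TNFRSF10D. The ranges of the other neighbours did not overlap. Within each of the 4 libraries CASP10 was above CFLAR and CFLAR above TNFRSF10D, while RIPK1 was above TNFRSF10A in 2. The length behind the authors' FPKM was 29315 bp for FAS, where the exons of GENCODE release 29 cover 4253 bp and the whole gene spans 25204 bp. It was 12173 bp for RIPK1, against 4231 bp of exons, and 22478 bp for CFLAR, whose coding transcripts have a median length of 1868 bp.

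With the exon union of GENCODE release 29 as the length, FAS moved from 0.309 to 2.13 and RIPK1 from 5.91 to 17.0 on the same scale. With the median length of transcripts that carry a consensus coding sequence (CCDS), CFLAR moved from 1.65 to 19.8 and from place 8 to place 3, beside CASP8 at 19.4. TNFSF10 was the highest member under all 3 lengths, and the signalling receptor TNFRSF10B took place 2 or 3. Reads were not recounted under these lengths, so reads outside a shorter length stay in the count and can raise the level. These lengths were tried after the data were seen. They set levels between genes and leave the fold change of a gene between groups as it is.

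**Figure D4:**
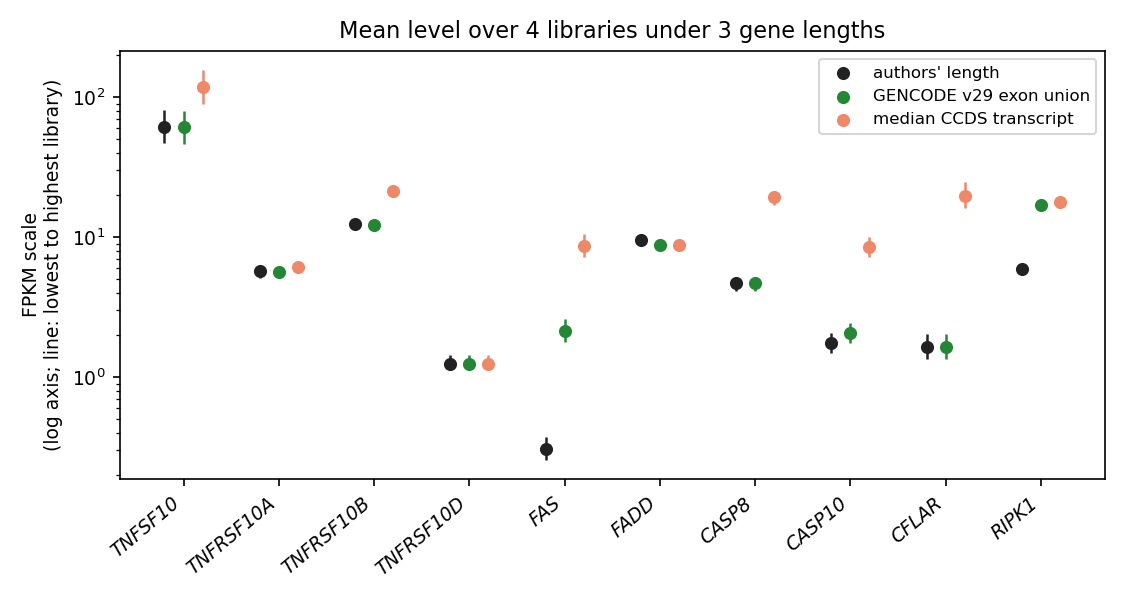
Mean level of each member over the 4 libraries on the FPKM scale (log axis), under the authors' gene length, the GENCODE release 29 exon union and the median CCDS transcript, with lines from the lowest to the highest library. FAS moves from 0.309 to 2.13 and 8.68 and CFLAR from 1.65 to 1.64 and 19.8, while TNFRSF10D stays at 1.24.

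Of 81 other pathway genes in 6 lists, 71 were tested, and 1 was called higher and 0 lower by edgeR, with a median log2 fold change of -0.01. Over all genes tested 0.285% were called higher and 0.212% lower. With p under 0.05 before adjustment 5 pathway genes were higher and 8 lower, where 6.00% and 6.81% of all genes tested were. By DESeq2, 1 passed in each direction, beside 95 higher and 109 lower over all 29209 genes it was run on. The 1 was CASP14, a caspase of the cornifying epidermis that is known for cornification rather than death receptor signalling. It rose from 3.47 and 2.79 FPKM in NC to 6.81 and 7.27 FPKM in TCN1_OE, by 1.15 ± 0.17 on the log2 scale (edgeR adjusted p = 0.0285). The inflammatory caspases CASP1 and CASP4 stood at 0.41 ± 0.12 and 0.40 ± 0.21 and CASP2 at -0.07 ± 0.11, without passing. The keratins KRT1 and KRT10 were called higher among the keratinocyte markers in the same libraries, and their part in these values was not tested.

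Among other death ligands, receptors and decoys, 0 of 7 tested were called. TNFSF15, the ligand TL1A, came nearest: it stood at 2.13 and 2.13 FPKM in NC and 1.21 and 1.09 FPKM in TCN1_OE, both below NC. At -0.89 ± 0.17 on the log2 scale it missed the threshold with edgeR (adjusted p = 0.0568) and passed with DESeq2 at 0.0285. Its log2 fold change was -0.90 without NC replicate 1, -0.89 without NC replicate 2 and -0.96 without TCN1_OE replicate 1. The value without TCN1_OE replicate 2 is not given here, so these values do not show stability to leaving out any library. Over the 13 alternatives its adjusted p (edgeR, DESeq2 or limma) lay between 2.2e-05, from the replicate block, and 0.223. The ectodysplasin receptor EDAR stood at 0.34 ± 0.11 and the death receptor TNFRSF21 at -0.29 ± 0.11, without passing.

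Among ubiquitin and adaptor proteins of the receptor complex, 0 of 21 tested were called, with 8 positive and 13 negative and a median of -0.01. The kinase genes CHUK and IKBKB, which encode IKK subunits, stood at -0.35 ± 0.12 and 0.25 ± 0.10, and the adaptor TRAF3 at -0.35 ± 0.12. In the necroptosis list 0 of 8 were called, with 2 positive and 6 negative. The mitochondrial phosphatase PGAM5 stood at -0.41 ± 0.11, the kinase MAPKAPK2 at -0.15 ± 0.11 and the ubiquitin ligase PELI1 at 0.18 ± 0.16.

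Among other proteins with a death fold and modulators of the complex, 0 of 12 were called. NOL3, an inhibitor of death receptor signalling, stood at 6.45 and 7.46 FPKM in NC and 9.40 and 10.2 FPKM in TCN1_OE, or 0.49 ± 0.14 on the log2 scale (edgeR adjusted p = 0.178). PEA15, a protein with a death effector domain that can bind FADD, stood at -0.24 ± 0.09 and FAF1 at -0.16 ± 0.10. Downstream of caspase-8, 0 of 19 execution genes were called, with a median of -0.01. BID, which caspase-8 cleaves to engage mitochondria, stood at 11.2 and 11.1 FPKM in NC and 8.62 and 8.42 FPKM in TCN1_OE. On the log2 scale it stood at -0.39 ± 0.11 (edgeR adjusted p = 0.172). PARP1 and DFFA, both substrates of executioner caspases, stood at -0.24 ± 0.08 and -0.23 ± 0.11.

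Genes of 4 signalling routes known to act on members of the pathway were counted beside them, with the 10 members left out of each list. Over all genes tested 0.285% were called higher and 6.00% were higher with p under 0.05 before adjustment. Of 40 interferon-induced genes tested, a group known to include TNFSF10 as well, 0 were called by edgeR (5 higher and 1 lower with p under 0.05 before adjustment), with 20 positive, 20 negative and a median of 0.00 on the log2 scale. Of 20 NF-kB target genes, a group known to include CFLAR as well, 0 were called (1 higher and 0 lower before adjustment) and the median was -0.01. Of 25 p53 target genes, a group known to include FAS and TNFRSF10B as well, BTG2 and TP53INP1 were called higher and 0 lower (6 higher and 1 lower before adjustment), with a median of 0.05. Of 21 FOXO target genes, a group known to include TNFSF10 as well, PIK3IP1, BMF, TP53INP1 and TXNIP were called higher and 0 lower (9 higher and 0 lower before adjustment), with 18 positive, 3 negative and a median of 0.24. These lists were chosen with earlier results of these data known, and TP53INP1 is on both of the last lists.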

How the data were processed

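PolyA RNA of HaCaT cells was sequenced in 4 libraries, 2 NC and 2 TCN1_OE, grouped by their titles. The submitters' processing notes name HISAT2, HTSeq 0.13.5 and GRCh38. The annotation release, and how strand and multiply mapped reads were treated, are not stated in the labels or headers. The authors deposited a raw count and an FPKM value per gene and library, per the file headers. Deposited FPKM is the count divided by the library's summed counts and by one gene length, which was whole in 100% of values above 0 within 1e-04 bp. Counts without molecular identifiers are not independent molecules.

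Counts were tested with edgeR 4.0.16 in R 4.3.3: TMM factors, filterByExpr with a minimum count of 10, robust quasi-likelihood fit, group as the only term, all 4 libraries, and Benjamini-Hochberg adjustment over 15113 genes. The SE is the log2 fold change divided by the square root of F, and 95% intervals use the fit's degrees of freedom. The edgeR steps were run on simulated counts with known fold changes and independently drawn libraries, which checks the steps and not the assumptions about these libraries. Alternatives were DESeq2 1.42.0, limma 3.58.1 on log2 FPKM with 3 pseudocounts, other normalisations and filters, a replicate block and leaving out each library. Gene positions and exons came from GENCODE release 29 and promoters from RefSeq on GRCh38.p14.

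The members and gene lists were chosen with earlier results of these data known. All members were named. From each pathway list, called genes and up to 3 others with the smallest p were named, and from the 4 lists of signalling routes called genes only.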

Additional observations from a re-analysis of the deposited data

How the results depend on the processing

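The 13 alternatives gave TNFSF10 log2 fold changes of 0.46 to 0.71. It was not called with limma under any pseudocount or with edgeR on genes of at least 1 FPKM. CFLAR lay between 0.32 and 0.58, CASP10 between 0.28 and 0.46, TNFRSF10A between -0.27 and -0.19, FADD between 0.04 and 0.15, and FAS, in the 9 that tested it, between -0.51 and -0.34. On leaving out 1 library, TNFRSF10B lay between -0.12 and 0.04, positive without NC replicate 2, and RIPK1 between -0.04 and 0.07, negative without NC replicate 2 (-0.01) and without TCN1_OE replicate 1. TNFRSF10D lay between -0.11 and 0.27 and CASP8 between -0.23 and 0.01, with the sign turned without TCN1_OE replicate 2.

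Over all genes, the 43 higher and 32 lower calls became 95 and 109 with DESeq2, 78 and 53 with upper-quartile factors, 200 and 275 without a filter, and 1 and 0 with limma on log2(FPKM + 0.5), on log2(FPKM + 0.1) and on log2(FPKM + 1). With edgeR on genes of at least 1 FPKM they became 31 and 14. Leaving out 1 library gave 104 to 188 higher and 106 to 142 lower. Among fits on all 4 libraries without a replicate block, members called higher went from 1 to 0 with limma under all 3 pseudocounts. They also went to 0 with edgeR on genes of at least 1 FPKM, and to 2 without a filter. Pathway genes called higher went from 1 to 0 with limma. In the same fits, pathway genes called lower went from 0 to 1 with DESeq2 and upper-quartile factors, and to 2 without a filter (TNFSF15 and PGAM5). The causes were not tested.

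The labels do not say whether same-numbered libraries were paired. With 2 pairs, the replicate 1 deviations of the groups correlated at 0.15 across all 15113 genes tested. This value, taken over genes of low and high counts alike, does not settle whether they were paired. A fit with the replicate number as a block called 1216 genes higher and 1655 lower, 3 members higher (TNFSF10, CFLAR and CASP10) and 0 lower, and 10 pathway genes higher and 11 lower. For the 2 planned ratios, pairing gives the same log2 difference by arithmetic (0.61 and -0.13) and checks nothing.

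At 47 to 88 counts per library TNFRSF10D limits what can be seen: its interval reaches 0.721-fold and 1.57-fold.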
